A study of Rattus norvegicus with 9 samples.

Results

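Natural killer (NK) cells recognise other cells through surface receptors and kill them by releasing granules, and the 10 genes described here encode parts of both steps: the receptors Klrk1, Klrd1, Klrc1, Klrb1 and Ncr1, the granule genes Gzma, Gzmb, Prf1 and Nkg7, and the transcription factor Eomes. They were chosen by name, with earlier results of these data known, and each was read from its brightest probe cluster. All 10 were measured among the 18166 genes that the array covered with a single symbol. RNA from abdominal aorta blood of male Sprague-Dawley rats was hybridised to 3 Affymetrix Rat Gene 2.0 ST arrays per group, which the labels call biological replicates. In the QDBS group (Qi deficiency and blood stasis), rats swam to exhaustion once a day for 21 days before middle cerebral artery occlusion (MCAO), a model of ischemic stroke in which a filament blocks the artery. In the YDBS group (Yin deficiency and blood stasis), rats received 45 mg/kg hydrocortisone for 13 days and 0.36 mg/kg epinephrine for 1 day before MCAO. Sham rats had the same surgery without the filament and neither pretreatment, and all blood was taken at 24 h of reperfusion or its equivalent after sham surgery. No group had MCAO without a pretreatment, so the effects of stroke and of swimming or hormones cannot be told apart in any comparison with sham.

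Klrk1 (NKG2D) and Ncr1 (NKp46) are activating receptors, whereas Klrd1 (CD94) pairs with Klrc1 (NKG2A) to form an inhibitory receptor for non-classical MHC class I. Perforin, the product of Prf1, opens the target cell membrane to the granzymes, serine proteases that trigger death of the target. The same granule genes and Klrk1 are also used by cytotoxic CD8 T cells, so that in blood these transcripts can come from more than one lymphocyte type. In bulk blood, more cells of a type and more RNA per cell cannot be told apart.

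5 of the 10 genes were up-regulated in QDBS rats and the same 5, Klrk1, Klrd1, Ncr1, Gzma and Prf1, in YDBS rats, at a false discovery rate (FDR) under 0.05 over all genes and an absolute log2 fold change (FC) above 1 in limma. None was down-regulated. These criteria called 9.62% of all genes up and 1.36% down in QDBS and 10.4% up and 0.919% down in YDBS. They called up 15.7% in QDBS and 16.9% in YDBS of the genes above the dimmest 40%, the range in which 9 of the 10 lay. The median log2 FC of the 10 was 1.01 in QDBS and 1.13 in YDBS, against -0.15 and -0.16 over all genes. Without the criterion on log2 FC, 9 genes passed upward in QDBS and 8 in YDBS. Of all genes, 20.0% and 20.5% did so, genes that passed downward not counted. The signals of all 3 arrays lay above all 3 sham arrays for 9 genes in QDBS (22.8% of all genes) and for 8 in YDBS (23.4%). Signals are RMA values on the log2 scale, as deposited, where 1 unit is a doubling of brightness, and they rank one gene across arrays but not one gene against another.

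**Figure D1:**
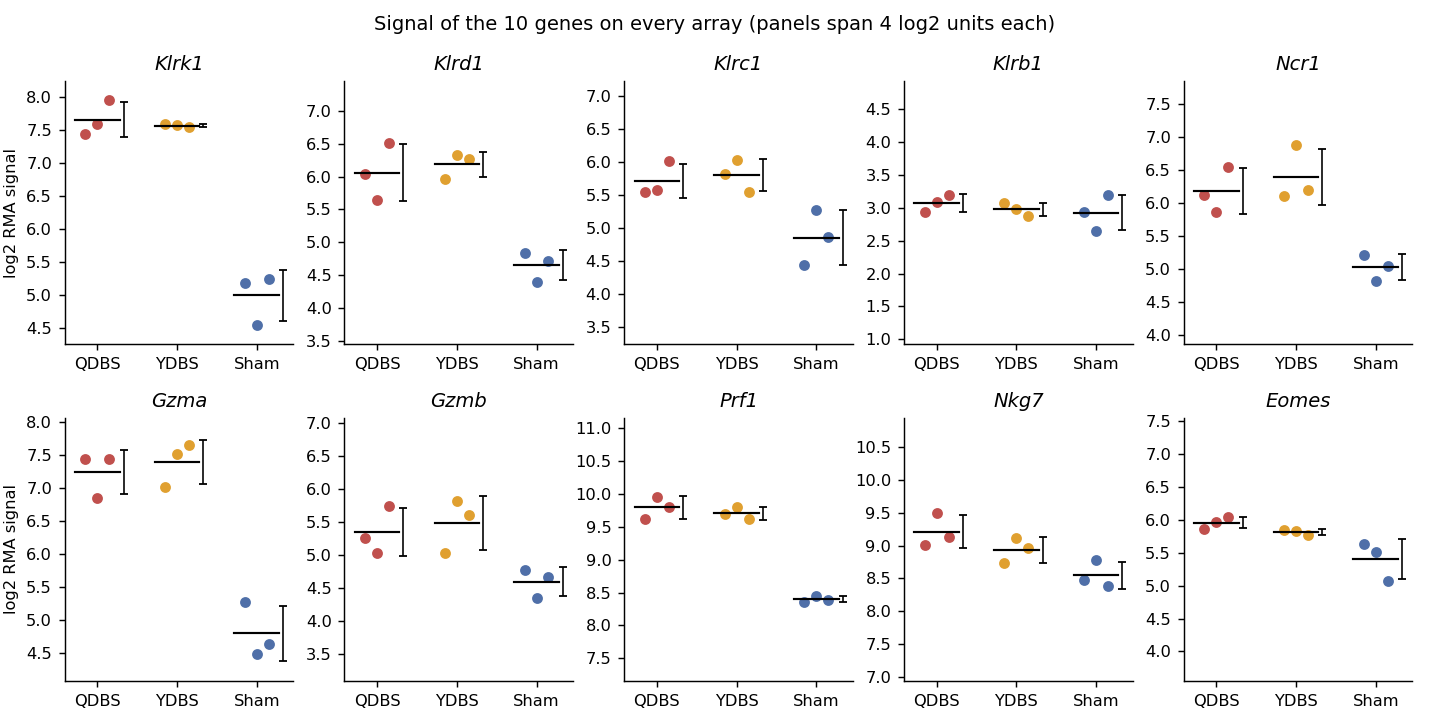
Deposited log2 RMA signal (y axis) of each of the 10 genes on the 3 QDBS, 3 YDBS and 3 sham arrays (x axis). Points are arrays, the horizontal line is the group mean and the bar beside it ±1 SD. Klrk1, Gzma and Prf1 show a clear gap above sham, whereas Klrb1 overlaps in all groups.

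The promoters of the 10 genes were read for 3 short motifs of factors with a known role in cytotoxic lymphocytes, since 5 of them were up-regulated in both models. RefSeq (build GRCr8) gave a window of 250 bases before to 50 after the start for 8 genes. Klrd1 and Ncr1 had none in the table. The RUNX letters TGTGGT or their reverse complement ACCACA were present in 7 of the 8 windows, against 17.3% of 33469 promoters of the same length. The T-box letters AGGTGT or ACACCT were present in 2, Klrb1 and Gzma (13.6% of promoters), and the STAT5 letters TTCNNNGAA in 2, Nkg7 and Gzmb (8.87%). Matches were sought on both strands, the motifs share no letters in the windows printed, and a match describes the sequence only. Klrk1, Gzma and Prf1, which met both criteria, had the RUNX letters, and so did Klrc1, Nkg7, Gzmb and Eomes, which did not. The letters therefore did not set the up-regulated genes apart. Shown are the 3 genes with the largest or steadiest change and Klrb1, the gene without the RUNX letters. RUNX and T-box matches are in capitals, and each window runs 5′ to 3′ on the strand of its gene. The Klrk1 window lies at chr4:164778333-164778632 (minus strand), Gzma at chr2:46485647-46485946 (minus), Prf1 at chr20:29788790-29789089 (plus) and Klrb1 at chr4:164142073-164142372 (plus).
Klrk1: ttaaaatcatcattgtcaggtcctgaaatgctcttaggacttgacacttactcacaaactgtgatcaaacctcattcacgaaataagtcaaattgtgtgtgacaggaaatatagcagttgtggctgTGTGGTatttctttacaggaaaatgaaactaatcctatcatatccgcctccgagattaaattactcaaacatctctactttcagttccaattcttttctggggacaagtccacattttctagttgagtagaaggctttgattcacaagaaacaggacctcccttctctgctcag
Gzma: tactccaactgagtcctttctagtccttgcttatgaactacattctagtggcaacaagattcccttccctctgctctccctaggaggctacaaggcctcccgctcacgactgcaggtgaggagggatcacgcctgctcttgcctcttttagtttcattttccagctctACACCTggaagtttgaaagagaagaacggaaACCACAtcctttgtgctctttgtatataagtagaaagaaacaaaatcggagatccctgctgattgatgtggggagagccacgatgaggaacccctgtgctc
Prf1: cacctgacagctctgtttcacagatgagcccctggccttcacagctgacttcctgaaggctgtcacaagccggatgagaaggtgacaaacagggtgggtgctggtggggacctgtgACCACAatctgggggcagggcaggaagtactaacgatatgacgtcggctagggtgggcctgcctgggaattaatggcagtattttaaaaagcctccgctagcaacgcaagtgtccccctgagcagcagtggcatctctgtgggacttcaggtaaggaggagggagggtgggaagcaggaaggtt
Klrb1: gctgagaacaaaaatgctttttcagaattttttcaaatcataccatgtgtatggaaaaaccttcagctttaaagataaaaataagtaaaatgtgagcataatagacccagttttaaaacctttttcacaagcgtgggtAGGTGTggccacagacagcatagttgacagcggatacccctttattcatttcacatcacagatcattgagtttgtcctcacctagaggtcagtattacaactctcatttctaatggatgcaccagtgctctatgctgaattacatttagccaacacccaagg

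Klrk1, the receptor for stress-induced ligands of the MHC class I type, showed the largest change of the 10 in QDBS. Its log2 signal was 7.45, 7.59 and 7.95 on the QDBS arrays and 7.59, 7.57 and 7.55 on the YDBS arrays, against 5.18, 4.54 and 5.24 on the sham arrays. All 6 model arrays lay more than 2 log2 units above the highest sham array, and the YDBS arrays had an SD of 0.02. The log2 FC was 2.67 (SE 0.19, 6.38-fold, limma FDR 4.56e-06) in QDBS and 2.58 (5.99-fold, FDR 5.08e-06) in YDBS. Its RUNX match, TGTGGT, is the one in the window printed above.

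Ncr1, the activating receptor that marks NK cells across mammals, had signals of 6.12, 5.86 and 6.55 on the QDBS arrays and 6.11, 6.89 and 6.20 on the YDBS arrays, against 5.21, 4.82 and 5.04 on the sham arrays. No array of either model overlapped with sham. The log2 FC was 1.15 (SE 0.23, FDR 0.00256 by limma) in QDBS and 1.37 (FDR 0.000813) in YDBS. The call in QDBS was lost without QDBS replicate 3 (log2 FC 0.97) and with centring on the 75th percentile (0.79), quantile normalization (0.92) or cyclic loess (0.86), and that in YDBS with centring on the 75th percentile (0.99).

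Of the CD94 chain and its partner, the chain met both criteria and the partner the FDR alone, and the difference between them was not tested. Klrd1 had signals of 6.03, 5.65 and 6.50 on the QDBS arrays and 5.97, 6.32 and 6.26 on the YDBS arrays, against 4.84, 4.40 and 4.72 on the sham arrays. It was up-regulated 2.66-fold in QDBS (log2 FC 1.41, limma FDR 0.000429) and 2.89-fold in YDBS (log2 FC 1.53, FDR 0.000227), with no overlap of arrays. Klrc1, which encodes NKG2A, had 5.55, 5.58 and 6.01 on the QDBS arrays and 5.82, 6.03 and 5.55 on the YDBS arrays, against 4.43, 5.27 and 4.86 on the sham arrays. All model arrays again exceeded all sham arrays, and the FDR passed (0.00915 in QDBS, 0.00522 in YDBS), but the log2 FC stayed under 1 at 0.86 in QDBS and 0.95 in YDBS. Without sham replicate 2, its highest sham array, the log2 FC was 1.07 and 1.16 and the gene met both criteria.

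Klrb1, a member of the NKR-P1 receptors, was not called in either model. It was dim, at the 19.0th percentile of all genes, and had 2.94, 3.09 and 3.20 on the QDBS arrays and 3.07, 2.98 and 2.88 on the YDBS arrays, against 2.94, 2.65 and 3.19 on the sham arrays. The arrays overlapped in every group. The log2 FC was 0.15 in QDBS (limma FDR 0.419) and 0.05 in YDBS (FDR 0.794), and the neighbouring genes Klrb1a and Klrb1b shared their probe clusters and are not reported singly.

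Gzma was the granule gene with the largest change. Granzyme A, a protease of the tryptase kind, had signals of 7.44, 6.85 and 7.44 on the QDBS arrays and 7.02, 7.51 and 7.66 on the YDBS arrays, against 5.26, 4.48 and 4.63 on the sham arrays. All 6 model arrays lay above all 3 sham arrays. The log2 FC was 2.45 (SE 0.24, 5.47-fold, limma FDR 3.14e-05) in QDBS and 2.61 (6.09-fold, FDR 1.93e-05) in YDBS.

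Prf1 had the smallest spread of the 10 genes among sham arrays (SD 0.04). Its signals were 9.62, 9.96 and 9.81 on the QDBS arrays and 9.69, 9.81 and 9.61 on the YDBS arrays, against 8.36, 8.44 and 8.39 on the sham arrays. The groups were separated by over 1 log2 unit. The log2 FC was 1.40 (SE 0.12, limma FDR 1.48e-05) in QDBS and 1.31 (FDR 1.9e-05) in YDBS. In YDBS it dropped to 0.93 with centring on the 75th percentile and 0.98 with quantile normalization, both under the threshold.

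Granzyme B, which cleaves after aspartate and activates caspases, passed the FDR but not the criterion on log2 FC. Gzmb had signals of 5.26, 5.04 and 5.75 on the QDBS arrays and 5.03, 5.82 and 5.61 on the YDBS arrays, against 4.77, 4.35 and 4.66 on the sham arrays. The model arrays did not overlap with sham, and the log2 FC was 0.75 for QDBS (FDR 0.0229, limma) and 0.89 for YDBS (FDR 0.00998). The array held 3 probe clusters for Gzmb, and the brightest was used. In a fit of all clusters, the other two gave log2 FCs of -0.46 and -0.23 in QDBS and -0.16 and -0.25 in YDBS, none past the FDR, so the direction for Gzmb is that of 1 cluster.

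Nkg7, a granule membrane protein, was among the brightest genes, at the 98.1th percentile. Its signals were 9.0, 9.50 and 9.14 on the QDBS arrays and 8.73, 9.12 and 8.96 on the YDBS arrays, against 8.48, 8.77 and 8.39 on the sham arrays. In QDBS the log2 FC of 0.67 passed the FDR (0.00887, limma), whereas in YDBS it was 0.39 with an FDR of 0.0736 and the arrays overlapped. Eomes, the T-box factor needed for NK cell maturation, had 5.87, 5.96 and 6.04 on the QDBS arrays and 5.85, 5.83 and 5.77 on the YDBS arrays, against 5.64, 5.51 and 5.06 on the sham arrays. The shift was small, with a log2 FC of 0.55 in QDBS (FDR 0.0134 by limma) and 0.41 in YDBS (FDR 0.0431), and neither met the criterion of a log2 FC above 1.

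**Figure D2:**
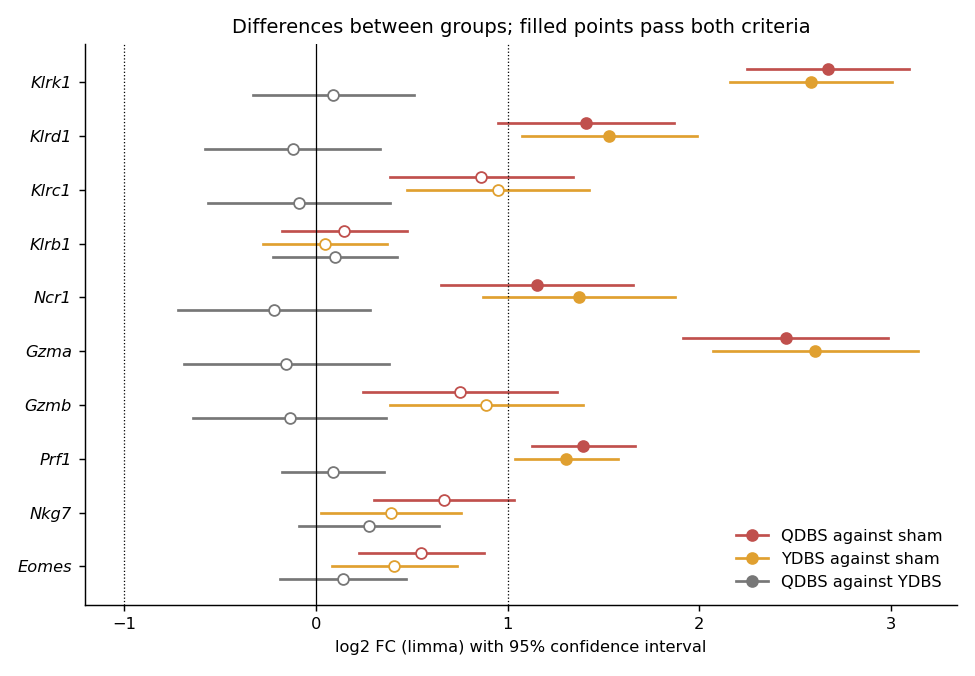
Log2 FC with its 95% confidence interval (x axis) for the 10 genes (y axis) in QDBS against sham, YDBS against sham and QDBS against YDBS. Filled points pass an FDR under 0.05 and an absolute log2 FC above 1, which 5 genes did in each model and none between the models.

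No difference between the models was detected for any of the 10 genes. QDBS against YDBS gave no call among them, against 0.0% of all genes called up and 0.33% called down, and no member had an unadjusted p under 0.05, where 10.5% of all genes did. The log2 FC was 0.09 for Klrk1 (95% confidence interval -0.33 to 0.51), -0.22 for Ncr1 (-0.72 to 0.28), -0.15 for Gzma (-0.69 to 0.38), 0.09 for Prf1 (-0.18 to 0.36) and 0.28 for Nkg7 (-0.09 to 0.64). For Eomes alone all 3 QDBS arrays lay above all 3 YDBS arrays, with a log2 FC of 0.14 (-0.19 to 0.47, limma FDR 0.894), where 9.79% of all genes did so. Over the 10 genes the intervals reached from -0.72 (Ncr1) to 0.64 (Nkg7), and differences up to this size between the models could not be resolved. Both comparisons with sham use the same 3 sham arrays. Over all genes, pairs of sham arrays correlated at r 0.963 to 0.989, against 0.989 to 0.993 in QDBS and 0.989 to 0.991 in YDBS.

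Across arrays, most of the 10 genes went together. The Pearson r of each gene with the mean of the other 9, over 9 arrays and with the group difference included, ran from 0.976 for Klrk1 and Klrd1 to 0.718 for Nkg7, with Klrb1 at 0.325. QDBS replicate 3 was the highest QDBS array for 8 of the 10 genes and YDBS replicate 2 the highest YDBS array for 6. Sham replicate 2 was the lowest sham array for 6. How often these arrays were highest or lowest over all genes was not counted. Of the genes outside the lists, Stag1 (r 0.9967), Ssb (0.994), Tec (0.994), Wapl (0.9938) and Slc16a6 (0.9931) had the profiles closest to the mean of the 10 over the 9 arrays. Stag1, a cohesin subunit, was up-regulated in QDBS (log2 FC 1.38, FDR 3.23e-05, limma) and in YDBS (1.48, FDR 1.9e-05).

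Klrk1, Klrd1, Klrc1 and Klrb1 lie in the natural killer gene complex of rat chromosome 4, a run of lectin receptor genes. Of the 37 measured genes within 18 places of Klrk1 in RefSeq order, 9 were up-regulated and 2 down-regulated in QDBS, and 11 and 0 in YDBS. Over all genes, 9.62% were called up and 1.36% down in QDBS, and 10.4% and 0.919% in YDBS. Clec7a, outside the Klr and Ly49 families, had the largest change of the run (log2 FC 2.78 and 3.86). Among the 21 of the Klr and Ly49 families, 4 were up-regulated in QDBS and 5 in YDBS, each time with Klrk1 and Klrd1 included. The median log2 FC of the 21 was 0.15 and 0.47. Called and uncalled genes lay side by side. Klrc2, between Klrc3 and Klrc1, had -0.31 (QDBS) and -0.36 (YDBS) on the log2 FC scale, and Klrc3 had 0.68 and 0.63, neither called. Klrc2 was dim, at the 13.1th percentile of all genes, as were Klrc3 (5.8), Klre1 (6.6) and Klrh1 (4.6). A missing call in genes this dim cannot be read as no change, which also limits the family median. Klri1 (1.65 and 2.02, FDR 0.00278 and 0.000739, limma) and Klra4 (1.86 and 2.36) were up-regulated in both models. Several of these genes are near-identical copies, whose probes can share signal.

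**Figure D3:**
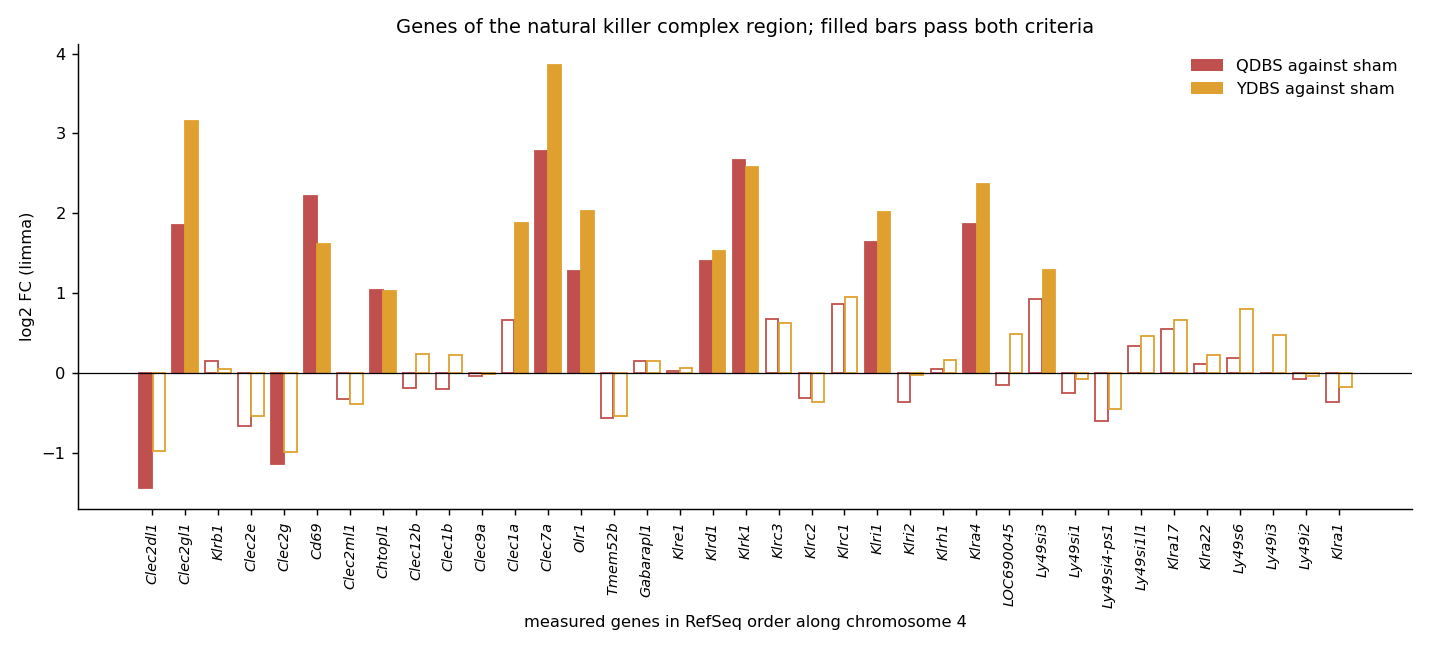
Log2 FC in QDBS and YDBS against sham (y axis) of the 37 measured genes around Klrk1, in RefSeq order along chromosome 4 (x axis). Filled bars pass both criteria, which 9 genes did upward in QDBS and 11 in YDBS, interspersed with genes near 0.

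In the lists that follow, paired values are for QDBS and then YDBS against sham. Their counts and medians are to be read against all genes. Of these, 9.62% and 10.4% were called up and 1.36% and 0.919% down, with median log2 FCs of -0.15 and -0.16. Beyond the 10, 28 other NK receptors and adaptors were measured, of which 7 were up-regulated in QDBS and 8 in YDBS and none down, with median log2 FCs of 0.09 and 0.15. Several of the uncalled receptors were dim, Klrc2, Klrc3, Klre1 and Klrh1 among them, which limits these medians. The count in YDBS was 5 with centring on the 75th percentile and by the plain t-test. Klra2 (Ly49 family) had 4.89, 4.33 and 5.38 on the QDBS arrays and 6.15, 7.08 and 6.41 on the YDBS arrays, against 3.26, 2.20 and 2.69 on the sham arrays. It was up-regulated in both models (log2 FC 2.15 and 3.83, limma FDR 0.000519 and 1.17e-05), and its log2 FC between QDBS and YDBS was -1.68 (FDR 0.0576), which did not pass. Sh2d1a, an adaptor of SLAM receptors, rose by 2.25 in QDBS and 2.01 in YDBS (log2 FC, FDR 3.01e-05 and 5.41e-05), and Cd96, a nectin-binding receptor, by 1.97 and 1.71. Of the signalling adaptors, Fcer1g had -0.33 and 0.11, Tyrobp (DAP12) -0.25 and 0.56 and Hcst (DAP10, a partner of NKG2D) -0.17 and -0.40, none called. Tyrobp and Fcer1g are also abundant in myeloid cells, and Hcst was named after its values were seen.

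Of 20 other genes of granule content and release, 5 were up-regulated in QDBS and 7 in YDBS, with medians of 0.32 and 0.54. Serpinb9, the inhibitor that shields the killer cell from granzyme B, had a log2 FC of 2.25 and 2.34 (limma FDR 5.31e-06 and 4e-06), Lyst, a lysosome trafficking regulator, 1.63 and 2.00, Rab27a, which docks granules, 1.42 and 1.61, and Gzmk, which neighbours Gzma, 1.46 and 1.24. Gzmk in YDBS fell below the threshold with 3 scalings, to 0.83 with quantile normalization. The 1 gene lower in QDBS was Stx11, a membrane fusion protein (log2 FC -1.20), a call lost without sham replicate 2 (-0.98). Srgn, which packs granule contents, had 0.24 and 0.78, and the lysosomal Lamp1 0.16 and 0.14, neither called. Gzmc, named after its values were seen and next to Gzmb in gene order, had -0.55 and -0.69.

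Of 19 other transcription factors and cytokine inputs, 7 were up-regulated in QDBS and 5 in YDBS, with medians of 0.45 and 0.34. Il18rap, the accessory chain of the IL-18 receptor, had a log2 FC of 2.85 and 3.27 (limma FDR 2.34e-05 and 8.83e-06), Jak1, a kinase of cytokine receptors, 2.46 and 2.14, Zeb2, a factor of mature NK cells, 1.89 and 2.28, and Il12rb2, a chain of the IL-12 receptor, 1.65 and 2.08. Tbx21 (T-bet), the T-box partner of Eomes, had 0.84 and 0.69 (FDR 0.0203 and 0.0412), under the log2 FC criterion, and was named after its values were seen. Gata3 (0.21 and -0.38) and Stat5b (0.20 and 0.34) were not called. Of 16 genes of traffic and secreted products, none was called in either model, at medians of 0.32 and 0.09, whereas 7 and 5 had an unadjusted p under 0.05, as did 52.9% and 55.4% of all genes. Ccl5, the chemokine, had 0.41 and 0.23 and Itgb2, the CD18 integrin, 0.31 and 0.42. Of 11 ligands of these receptors, only 1 was up-regulated in each model, at list medians of -0.03 and -0.08. It was Clec2d2 (1.87 and 1.31, FDR 2.87e-05 and 0.000262), a lectin of the kind that NKR-P1 receptors bind. Its call in YDBS was lost with centring on the 75th percentile (0.93). Clec2g was down-regulated in QDBS (-1.14, or -0.96 and not called without QDBS replicate 2), and its -0.98 in YDBS did not pass the log2 FC criterion. B2m (-0.03 and 0.11) and Cd48 (0.76 and 0.96) were not called.

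**Figure D4:**
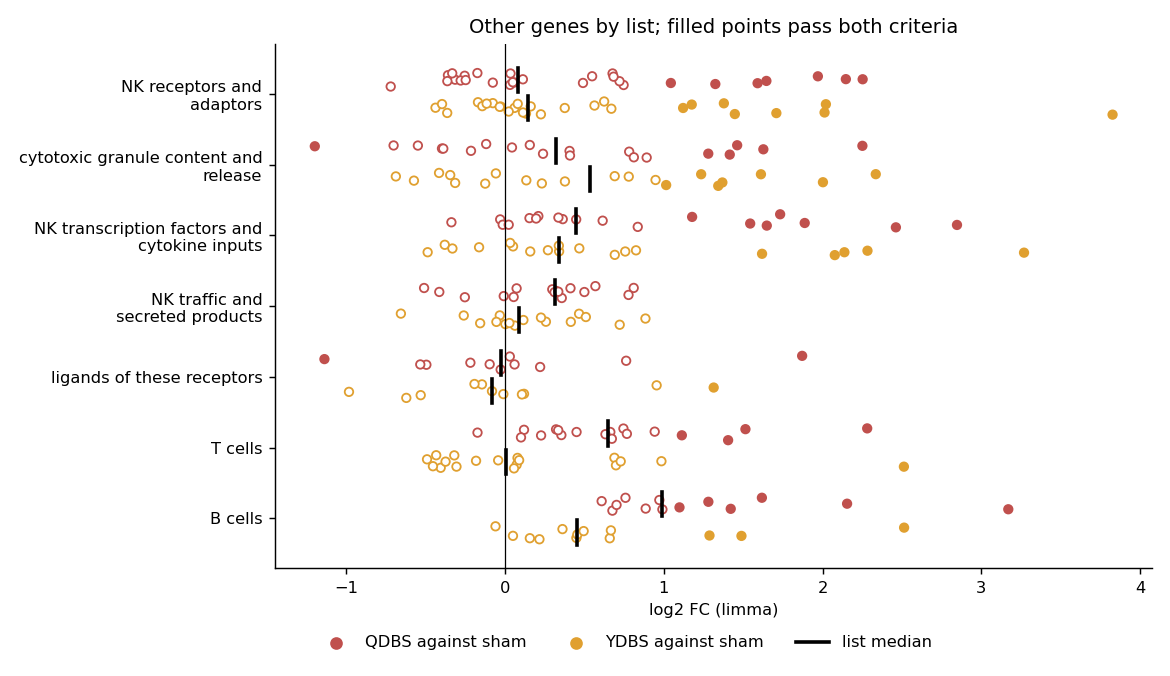
Log2 FC (x axis) of the other measured genes of each list (y axis) in QDBS and YDBS against sham. Points are genes, filled where they pass both criteria, and the black bar is the list median, which lies between -0.08 and 0.99 in the 7 lists.

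Genes of other blood cells also moved with the groups, and their part in the results above was not tested. Ptprc (CD45), carried by all leukocytes, had signals of 10.08, 10.02 and 10.30 on the QDBS arrays and 10.20, 10.13 and 10.06 on the YDBS arrays, against 7.67, 6.16 and 7.69 on the sham arrays. Its log2 FC was 2.96 in QDBS (limma FDR 6.64e-05) and 2.95 in YDBS (FDR 5.89e-05), and no member had a larger one in either model. The mean over 12 monocyte genes was 6.79 to 7.06 on the QDBS arrays and 7.01 to 7.22 on the YDBS arrays, against 6.44 to 6.58 on the sham arrays. Of these, 2 were up-regulated in QDBS and 4 in YDBS, among them Ccr2, a chemokine receptor (log2 FC 2.57 and 3.01). Their median log2 FC was only -0.01 in QDBS and 0.18 in YDBS. All 3 arrays lay above sham for 5 of the 12 in each model, and below it for 3 in QDBS and 1 in YDBS. The same criteria called up 9.62% of all genes in QDBS and 10.4% in YDBS, and down 1.36% and 0.919%. The mean log2 signal over 18 T cell genes was 8.42 to 8.53 on the QDBS arrays and 7.79 to 8.09 on the YDBS arrays, against 7.47 to 7.93 on the sham arrays. 4 of them were up-regulated in QDBS, among them Cd3g (log2 FC 1.51, limma FDR 0.000146) and Cd8a (1.41, named after its values were seen). In YDBS 1 was, Il7r (2.51, FDR 0.000363). The count in QDBS was 2 by the plain t-test. Median log2 FCs of the 18 were 0.65 in QDBS and 0.01 in YDBS. All 3 YDBS arrays lay above sham for 5 of the 18 and below it for 4. These 4 were Cd5 (log2 FC -0.40), Cd6 (-0.43), Zap70 (-0.45) and Lat (-0.49). Rat NK cells can also express Cd8a. The 10 NK genes averaged 6.51 to 6.84 on the QDBS arrays and 6.49 to 6.79 on the YDBS arrays, against 5.32 to 5.51 on the sham arrays. In QDBS 6 of 13 B cell genes were up-regulated, as were 3 in YDBS. The mean over 14 neutrophil genes was 7.22 to 7.87 in QDBS and 8.05 to 8.72 in YDBS, against 7.36 to 7.53 in sham. Against sham, none of the 14 was up-regulated and 3 were down-regulated in QDBS, whereas 7 were up and 1 down in YDBS. Il1r2 (log2 FC -1.83), Cxcr2 (-1.27), Padi4 (-1.09) and Csf3r (-1.03) of neutrophils and Selp (-1.75) of platelets were lower in QDBS than in YDBS by both criteria in limma, though each call was lost when 1 or another array was left out. Of 10 platelet genes 7 were down-regulated in QDBS and 2 in YDBS, and 1, Selp, was up-regulated in YDBS (log2 FC 1.57, limma FDR 2.52e-05). Of 13 hepatocyte genes, 11 were down-regulated in each model. Their mean log2 signal was 3.39 to 3.40 on the QDBS arrays and 3.40 to 3.51 on the YDBS arrays, against 5.23 to 5.99 on the sham arrays, so that sham blood carried more of this signal. Array medians also split by group, at 3.94 to 4.05 in the models and 4.15 to 4.21 in sham, and centring each array on its 75th percentile shifted the median of all genes by -0.37 in QDBS and -0.38 in YDBS.

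**Figure D5:**
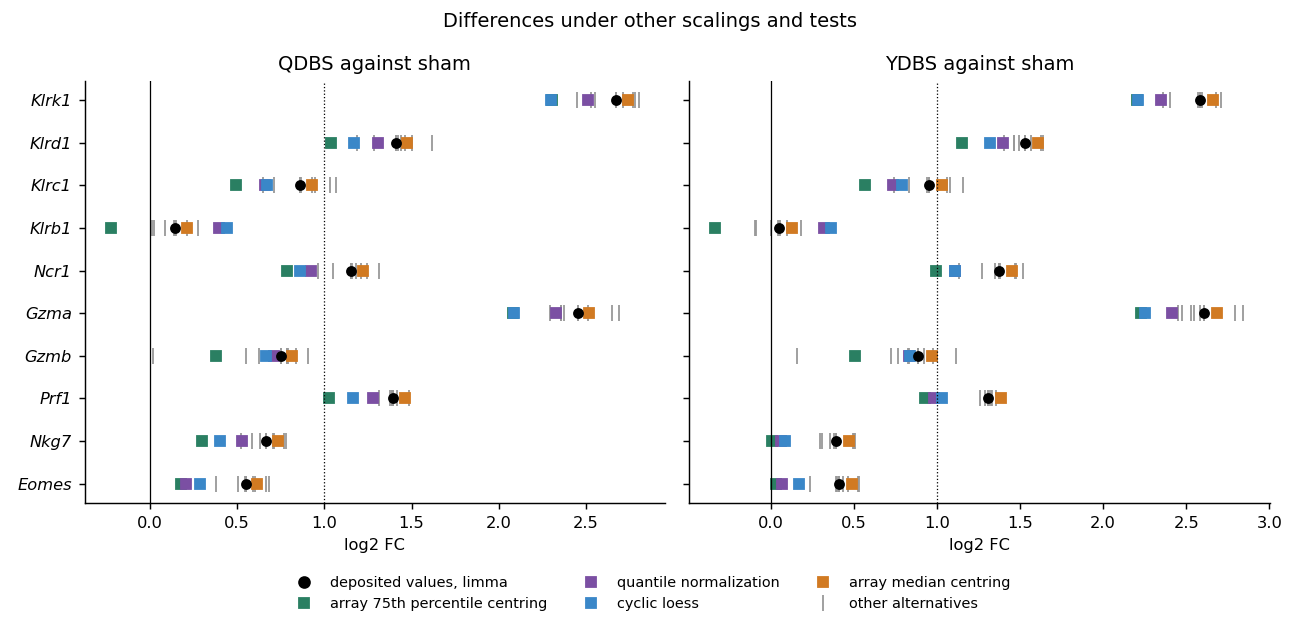
Log2 FC (x axis) of the 10 genes (y axis) in QDBS and YDBS against sham on the deposited values (black) and under other scalings (coloured) and settings (grey). The dotted line marks the criterion of 1, past which Klrk1, Klrd1 and Gzma stay in every setting and Prf1 in QDBS.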

How the data were processed

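The authors hybridised blood RNA to Affymetrix Rat Gene 2.0 ST arrays and, per the labels, deposited RMA values in log2 units made with Affymetrix Expression Console 1.1 (background correction, normalization and probe summary, which can shrink low signals). With 3 arrays per group, their number limits precision. Of 30347 probe clusters, 18511 named exactly 1 gene; the brightest cluster per gene gave 18166 genes, updated to current symbols. Clusters shared by several genes were left out. limma 3.58.1 in R 4.3.3 fitted the 9 arrays with 3 group means, and p-values were adjusted by Benjamini-Hochberg over all genes. A call needed an FDR under 0.05 and an absolute log2 FC above 1, the criteria of the study. No batch was given. Replicate numbers did not pair the arrays: deviations of same-numbered arrays correlated at -0.17 to 0.196, and of others at -0.13 to 0.217. The 10 genes and the other lists were chosen with earlier results of these data known. Other genes were named by rule: per NK list up to 4 called with the largest change and 2 uncalled with the highest signal. Klrc2, Klrc3, Klra4, Klre1, Klrh1, Clec7a and Stx11 were named outside this rule, as were those marked as named after their values were seen. Alternatives were 4 scalings, array weights, a plain t-test, other cluster rules, filters and leaving out each array. Scripts were tested on simulated data.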

Additional observations from a re-analysis of the deposited data

How the results depend on the processing

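Klrk1, Klrd1 and Gzma were up-regulated in both models under all 20 alternatives. The count of the 10 genes called was 9 in QDBS and 8 in YDBS with no threshold on log2 FC, and 4 in QDBS and 3 in YDBS with centring on the 75th percentile, where the share of all genes called up was 5.33% and 5.95%, against 9.62% and 10.4% on the deposited values. Leaving out 1 array at a time gave 4 to 6 in QDBS and 5 to 6 in YDBS, and 0 between the models. With the replicate block the counts were 5, 5 and 0, so the block changed no count. It was not taken as a paired design, because the labels do not state that the numbers pair the arrays. Gzmb met both criteria only in YDBS and without YDBS replicate 1 (log2 FC 1.12). Over the mean of its clusters it had 0.02 in QDBS and 0.16 in YDBS. Klra2 passed the FDR between the models under 5 alternatives. The plain t-test did not call Klri1, Il12rb2, Il7r or Stx11 in QDBS. The FDR of the plain t-test in QDBS was 0.107 for Klrc1, 0.0819 for Nkg7, 0.107 for Gzmb and 0.108 for Eomes. In YDBS it was 0.0833 for Klrc1, 0.0869 for Gzmb and 0.159 for Eomes, so none of these passed by that test. Centring on the 75th percentile gave limma FDRs in QDBS of 0.069 for Klrc1, 0.129 for Nkg7, 0.135 for Gzmb and 0.311 for Eomes. These 4 genes thus failed the FDR there too. Eomes in YDBS had a lowest log2 FC of 0.03 among the scalings, and a limma FDR of 0.0611 with the replicate block. Without sham replicate 2, Tbx21 in QDBS met both criteria (log2 FC 1.12). In YDBS, Cd48 did so without sham replicate 1 or YDBS replicate 1 or 2, and Clec2g without sham replicate 2 or YDBS replicate 2 or 3. Over the alternatives the count called up ranged from 3 to 8 for the granule list in YDBS, 3 to 10 for the B cell list in QDBS, 2 to 5 for the T cell list in QDBS and 1 to 2 in YDBS, 5 to 8 for the NK receptor list in either model and 0 to 2 for the ligand list in YDBS.

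These values changed sign, none of them called. With centring on the 75th percentile, log2 FCs in QDBS were -0.22 for Klrb1, -0.13 for Srgn, -0.21 for Lamp1, -0.16 for Gata3, -0.17 for Stat5b and -0.056 for Itgb2. In YDBS they were -0.33 for Klrb1, -0.27 for Fcer1g, -0.25 for Lamp1, -0.041 for Stat5b, -0.15 for Ccl5 and -0.27 for B2m. With quantile normalization they were -0.0062 for Lamp1, -0.0534 for Gata3, -0.145 for Stat5b and 0.0519 for B2m in QDBS, and -0.0392 for Fcer1g, -0.18 for Lamp1 and -0.0939 for Stat5b in YDBS. With cyclic loess they were -0.11 for Lamp1, -0.12 for Gata3, -0.15 for Stat5b and 0.0192 for B2m in QDBS, and -0.0454 for Fcer1g, -0.17 for Lamp1 and -0.0258 for Stat5b in YDBS. B2m in QDBS was 0.0401 with array median centring and 0.0239 with array weights, and Klrb1 in YDBS -0.092 with array weights. Leaving out 1 array, B2m in QDBS ran from -0.0605 to 0.0387 and Klrb1 in YDBS from -0.0876 to 0.18. Between QDBS and YDBS, Klrk1 ran from -0.0542 to 0.20, Klrd1 from -0.34 to 0.0858 (0.0038 with array weights), Klrc1 from -0.24 to 0.0287, Ncr1 from -0.41 to 0.0235, Gzmb from -0.37 to 0.0298 and Gzma from -0.34 to 0.042. The cause was not tested.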
